A study of Homo sapiens with 6 samples.

Results

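The genes described here encode enzymes that build cholesterol and fatty acids, with regulators that set their transcription. They are the 29 rows of the deposited table whose gene name is on a list of 17 sterol enzymes, 8 fatty acid enzymes and 4 genes of sterol sensing and transport, out of 48162 genes in all. Each name had 1 row, and all 29 passed the filter on low counts that left 16233 genes for testing.

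All cells were HEK293, a human embryonic kidney line, and all were made to carry Flag-tagged Ago2, the protein that holds small RNAs for silencing. They were cotransfected with microRNA-219 mimics (3 libraries, below the mimic group) or with negative control mimics (3 libraries, the control group). Anti-Flag beads pulled Ago2 down, and RNA recovered from them was sequenced, so a level is a transcript's share of the precipitate. Each group had 1 library from 22 August, 1 from 5 September and 1 from 18 September, and values are given in that order. Input RNA was not analysed here, so a transcript's amount and its binding to Ago2 cannot be told apart, nor can fewer cells and less RNA per cell in these bulk samples.

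Cholesterol is made from acetyl-CoA through mevalonate, isoprenoid diphosphates, squalene and lanosterol. Fatty acids are made from the same acetyl-CoA by carboxylation, chain building, elongation and desaturation. Both branches are transcribed under the SREBP factors, which stay in the endoplasmic reticulum membrane while sterols are plentiful and are moved to the Golgi and cut free when sterols run low. INSIG1 holds them in that membrane and is itself one of their targets. SREBP factors bind sterol regulatory elements, often near sites of the CCAAT-binding factor NF-Y.

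No member passed the test between mimic and control. INSIG1 had the widest range of any member, 2.07-fold over the 6 libraries, and its level followed the date. Both libraries of 18 September lay above the other 4, as they also did for MSMO1 and MVK. The share of all genes with that order is not given here. INSIG1 did not pass for any date in the main test (smallest edgeR adjusted p 0.126). NSDHL, an enzyme of the late sterol pathway, was lower in every mimic library than in every control library, but did not pass once adjusted over all genes. FASN, the fatty acid synthase, was above its control on 22 August and below it on 5 September by similar amounts.

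RefSeq lists 3 different mature RNAs for MIR219A1 and MIR219A2, and the labels do not say which the mimic carries. They are shown with the seed (bases 2 to 8, the part that selects targets) in capitals.
hsa-miR-219a-5p: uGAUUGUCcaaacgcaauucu
hsa-miR-219a-1-3p: aGAGUUGAgucuggacgucccg
hsa-miR-219a-2-3p: aGAAUUGUggcuggacaucugu
The first is the same from both genes, at chr6:33207855-33207875 (plus strand) and chr9:128392676-128392696 (minus strand) of GRCh38.p14. The 3 seeds all differ. Matching sites in the members' transcripts were not analysed here.

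Promoters were searched on both strands in RefSeq windows of GRCh38.p14, from 250 bases before a gene's start to 50 after it, with 36 windows for 26 of the 29 members. CCAAT, the core letters of the NF-Y site, was in windows of 21 of 26 member genes and in those of 39.7% of all 27305 genes with a window. At least 2 CCAAT were in a window of 10 of 15 sterol enzymes and 3 of 7 fatty acid enzymes, and of 12.9% of all genes. The classical sterol regulatory element was in SREBF2 and in 0.0586% of all genes. CACGTG, the palindromic E-box, was in INSIG1, LSS and SC5D and in 8.77% of all genes. These are matches of letters, not sites shown to be bound.

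The windows of 4 members are printed: SREBF2 for its sterol element, and INSIG1, MSMO1 and NSDHL because the date and mimic results below turn on them. Capitals mark CCAAT or its reverse, CACGTG and the sterol element.
SREBF2 (chr22:41832855-41833154, plus strand): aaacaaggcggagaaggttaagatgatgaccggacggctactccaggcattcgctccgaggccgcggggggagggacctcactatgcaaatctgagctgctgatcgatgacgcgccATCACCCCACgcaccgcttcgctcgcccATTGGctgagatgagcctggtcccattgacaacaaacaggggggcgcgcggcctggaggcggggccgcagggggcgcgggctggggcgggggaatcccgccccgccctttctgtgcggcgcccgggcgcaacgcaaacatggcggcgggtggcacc
INSIG1 (chr7:155297628-155297927, plus strand): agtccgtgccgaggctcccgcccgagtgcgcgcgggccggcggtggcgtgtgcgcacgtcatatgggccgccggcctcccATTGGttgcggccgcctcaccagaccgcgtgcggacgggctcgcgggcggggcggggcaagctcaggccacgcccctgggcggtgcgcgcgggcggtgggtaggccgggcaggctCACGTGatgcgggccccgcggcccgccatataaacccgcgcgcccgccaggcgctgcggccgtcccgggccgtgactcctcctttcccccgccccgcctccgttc
MSMO1 (chr4:165327419-165327718, plus strand): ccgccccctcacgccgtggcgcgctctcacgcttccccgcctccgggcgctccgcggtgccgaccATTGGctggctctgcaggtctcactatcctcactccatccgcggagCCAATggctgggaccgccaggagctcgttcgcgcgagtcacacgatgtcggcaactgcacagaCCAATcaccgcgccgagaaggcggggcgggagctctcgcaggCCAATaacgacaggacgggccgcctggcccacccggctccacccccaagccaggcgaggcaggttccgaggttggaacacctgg
NSDHL (chrX:152830813-152831112, plus strand): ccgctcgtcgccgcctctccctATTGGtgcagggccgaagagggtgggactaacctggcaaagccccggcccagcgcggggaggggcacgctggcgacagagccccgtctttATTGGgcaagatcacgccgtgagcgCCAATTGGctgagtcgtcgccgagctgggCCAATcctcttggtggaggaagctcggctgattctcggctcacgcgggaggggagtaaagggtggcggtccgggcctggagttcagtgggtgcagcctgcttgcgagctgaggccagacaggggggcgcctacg
NSDHL holds 5 CCAAT, 2 of which overlap, and MSMO1 holds 4. The sterol element of SREBF2 begins at −134 from the start, and the E-box of INSIG1 at −55.

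Libraries held 20233819 to 34408699 counts, of which the members took 0.212 to 0.246%. AGO2, the transfected gene, took 10.6 to 18% of counts. The HEK293 transcripts NEFM, NEFL, INA, LIN28B and PAX2 had counts in every library and summed to 371 to 456 CPM (counts scaled to the library total). Intestinal transcripts (6 of 6 with counts in some library, FABP2 and APOA4 at 9 counts or fewer) ran from 0.349 to 20.5 CPM and plasma cell transcripts (IGKC at 0 throughout) from 0 to 16.7 CPM. Haemoglobin reached 688 CPM in 1 library, the control of 5 September, and 0.198 CPM or less elsewhere. Hepatocyte transcripts (APOA2 at 0 throughout) and adipocyte transcripts each summed to 1.26 CPM or less.

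**Figure D1:**
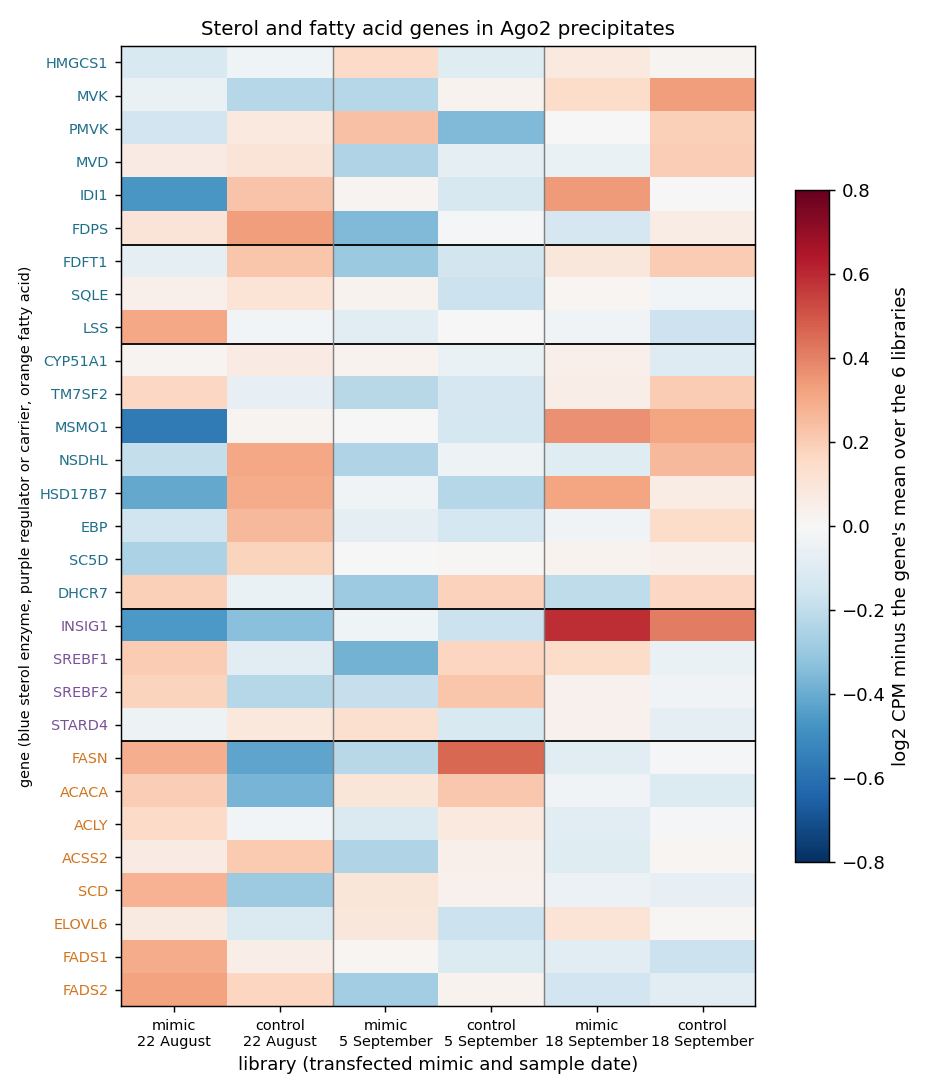
Level of each of the 29 members (rows) in each library (columns), as log2 CPM minus the gene's own mean over the 6 libraries, with red above that mean and blue below it. INSIG1, which ranges 2.07-fold, is below its mean in both libraries of 22 August and above it in both of 18 September.

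Early sterol enzymes carry acetyl-CoA to farnesyl diphosphate. HMGCS1, which makes HMG-CoA, stood at 144, 174 and 165 CPM under the mimic against 153, 146 and 159 CPM under the control. These CPM are scaled by TMM, a normalization that lines up the bulk of genes. The groups overlapped, with a fitted log2 change (mimic over control) of 0.08 and an SE of 0.13.

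MVK, a kinase of mevalonate, ran at 14.2 to 18.3 CPM under the mimic and 14.2 to 20.9 CPM under the control. PMVK, the next kinase, ran at 16 to 21 and 14 to 20.4 CPM. MVD, the decarboxylase that yields isopentenyl diphosphate, ran at 14.9 to 18.5 and 16.8 to 20.2 CPM and was below its control on each date (fitted −0.15, SE 0.15). All 3 overlapped between groups.

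IDI1, which isomerises isopentenyl diphosphate, stood at 43.6, 61.3 and 76.3 CPM under the mimic against 70.7, 55.1 and 60.3 CPM under the control. Its mimic library of 22 August was the lowest of the 6 and that of 18 September the highest, so the log2 ratio by date went from −0.70 to 0.34. FDPS, farnesyl diphosphate synthase, had only 62 to 106 counts per library. The table also has 7 FDPS pseudogene rows, with 10 counts over all libraries against 505 for FDPS, and reads that match several copies may be missing from all of them. Its fitted change of −0.25 (SE 0.23) is therefore uncertain.

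Squalene and lanosterol synthesis is carried by FDFT1, SQLE and LSS. FDFT1, squalene synthase, stood at 83, 71.2 and 93.3 CPM under the mimic against 102, 79 and 101 CPM under the control. Each mimic library was below the control of its date, yet the groups overlapped (fitted −0.19, SE 0.15). SQLE, the squalene epoxidase, varied little under the mimic (67.6 to 68.8 CPM) and ran at 59.5 to 72.4 CPM under the control. LSS, lanosterol synthase, ran at 38.7 to 51.2 and 36.8 to 41.1 CPM (fitted 0.14, SE 0.15).

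After lanosterol, NSDHL works with MSMO1 and HSD17B7 to strip methyl groups from the sterol ring. NSDHL (ENSG00000147383, chrX:151999511-152038273 of hg19) stood at 31.8, 30.7 and 34 CPM under the mimic against 44.9, 35.3 and 43.3 CPM under the control. All mimic libraries lay below all control libraries, which held for 3.84% of tested genes. The fitted change was −0.36 (SE 0.14, 95% CI −0.66 to −0.05), with an unadjusted p of 0.0254 and an edgeR adjusted p of 0.999 over 16233 genes. In 18 other settings it stayed between −0.45 and −0.28 and passed in 0.

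MSMO1 (ENSG00000052802, chr4:166248775-166264312), the methyl oxidase, stood at 48.1, 71.4 and 91.7 CPM under the mimic against 72.4, 64.7 and 88.6 CPM under the control. HSD17B7, the reductase, stood at 8.87, 11.6 and 14.7 CPM against 14.5, 10.1 and 12.3 CPM. Like IDI1, both were lowest in the mimic library of 22 August and highest in that of 18 September. HSD17B7 has a pseudogene, HSD17B7P2, with 614 counts against 1868 for the gene, so its reads may be split.

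EBP, the sterol isomerase, ran at 49.5 to 54.3 CPM under the mimic and 50.3 to 66.4 CPM under the control (fitted −0.19, SE 0.14). SC5D, a sterol desaturase, ran at 49.7 to 60.5 and 59.6 to 67 CPM (fitted −0.15, SE 0.14). DHCR7, a reductase of the final steps, stood at 49, 35 and 37.2 CPM against 41.3, 48.7 and 48.1 CPM. It was above its control on 22 August and below it on both later dates.

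TM7SF2, another sterol reductase, ran at 15 to 19.6 and 15.9 to 20.1 CPM, with a fitted change of 0.00 (SE 0.16). CYP51A1, the lanosterol demethylase, was the scarcest member per length at 0.604 CPM per kilobase, with 38 to 63 counts per library. The gene model of LRRD1 shares 30794 bases with it on the same strand, and reads there may count for neither gene, so its level is uncertain.

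SREBF2, the factor that mainly drives sterol genes, stood at 173, 135 and 156 CPM under the mimic against 131, 179 and 150 CPM under the control. SREBF1, the factor that mainly drives fatty acid genes, stood at 40.2, 26.9 and 38.6 CPM against 32.9, 39.4 and 33.8 CPM. Both were above their controls on 22 August and 18 September and below them on 5 September. STARD4, a soluble sterol carrier, ran at 24.4 to 27.4 and 23 to 26.6 CPM.

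INSIG1 (ENSG00000186480, chr7:155089486-155101945) stood at 67.9, 91 and 141 CPM under the mimic against 74.2, 83 and 124 CPM under the control. Mimic and control were close on every date, with a fitted change of 0.09 (SE 0.25, 95% CI −0.46 to 0.64). Both libraries of 22 August were below both of 5 September, and those below both of 18 September. With date and mimic in 1 model, 18 September differed from the mean of the other dates by 0.75 in log2 (SE 0.11, edgeR adjusted p = 0.126). For 22 August the difference was −0.59 (SE 0.12, edgeR adjusted p = 0.214), so neither passed.

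Whether INSIG1 passed depended on the setting. In each setting where it passed, more genes passed in all than in the main fit, as given below. For 18 September it lay between 0.66 and 0.84 in 11 other settings and passed in 7. The DESeq2 adjusted p was 0.00053, and with edgeR it was 0.000404 without the filter on low counts and 0.0382 with date alone. It was 0.148 by limma-voom and 0.128 with RLE scaling in edgeR. It passed in edgeR without either library of 22 August or either of 5 September (adjusted p 4.53e-05 to 0.00195), and was 1 without the mimic or the control library of 18 September itself. For 22 August it passed in 5 of 11 settings, with an adjusted p of 0.0221 by DESeq2 and, in edgeR, 0.0148 without the filter, 0.00121 without the control library of 22 August, and 0.0447 and 0.0132 without the mimic and the control library of 5 September.

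**Figure D2:**
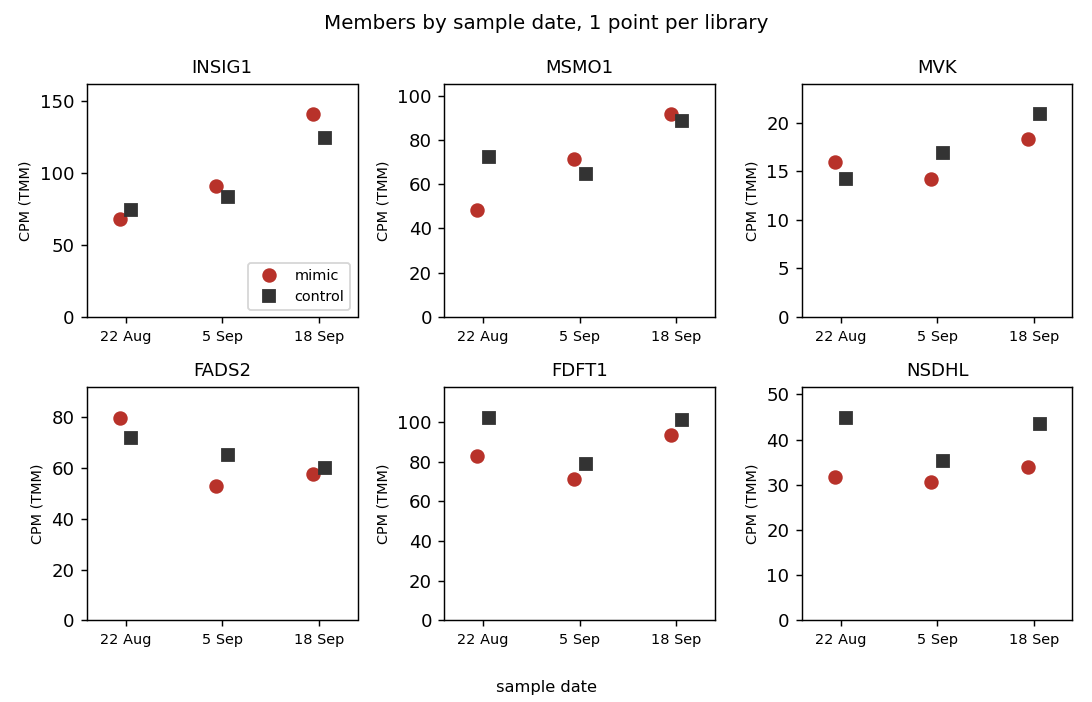
CPM (y axis, from 0) of 6 members on the 3 dates (x axis), with 1 point per library, mimic and control marked apart. INSIG1 lies at 67.9 to 74.2 CPM on 22 August and 124 to 141 CPM on 18 September, and NSDHL has its mimic point below its control point on each date.

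Over all members, 0 of 29 passed on any date by edgeR at an adjusted p under 0.05, against 0.339% of tested genes for 22 August (0.333% higher and 0.00616% lower), 0% for 5 September and 0.0493% for 18 September. At an unadjusted p under 0.05 there were 3 members for 22 August (6.89% of tested genes), 1 for 5 September (12.9%) and 3 for 18 September (16.4%). DESeq2 called 1 member for 22 August (0.702% of genes with an adjusted p), 0 for 5 September (0.432%) and 1 for 18 September (1.17%), INSIG1 both times. The members at an unadjusted p under 0.05 by edgeR were, for 18 September, INSIG1, MSMO1 (0.50, SE 0.16, edgeR adjusted p = 0.238) and MVK (0.35, SE 0.14, adjusted p = 0.287). For 22 August they were INSIG1, FADS2 (0.37, SE 0.12, edgeR adjusted p = 0.64) and FADS1 (0.27, SE 0.10, adjusted p = 0.704). For 5 September it was FDFT1.

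Single libraries moved these counts. Without the control library of 22 August, 6 members passed for 18 September (INSIG1, MSMO1, IDI1, HSD17B7, FDFT1 and FASN, the last of them lower), among 3748 genes in all. In that setting 5 members passed for 22 August (INSIG1, MSMO1, IDI1, DHCR7 and FADS2), among 1363 genes. Without the mimic library of 22 August, 5 members passed for 5 September (FASN and ACACA higher, and FDFT1, IDI1 and HSD17B7 lower), among 2344 genes. For 18 September, MVK, MSMO1 and INSIG1 passed without the mimic library of 22 August, among 1236 genes, MSMO1 and INSIG1 without that of 5 September, among 843, and INSIG1 without the control library of 5 September, among 254. FASN passed for 5 September without the mimic library of that date, among 306 genes. For 22 August INSIG1 passed without the mimic or the control library of 5 September, among 204 and 290 genes. In these settings the date concerned or the mean it is set against holds a date with 1 library, whose spread is taken from the others. The 6 libraries together left 16233 genes for testing, and the number left in each of these settings is not given here. The members that passed were therefore not set against the share of all genes and are not read as a result about the pathway.

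By branch, 12 of 17 sterol enzymes had a positive difference for 18 September, with a median of 0.105 against 0.006 for all tested genes, of which 8271 of 16233 were positive. The fatty acid enzymes had a median of −0.103, with 1 of 8 positive. For 5 September 2 of 17 sterol enzymes were positive (median −0.106) and 3 of 8 fatty acid enzymes (median −0.043), against 7793 of 16233 tested genes (median −0.013). FDFT1 had the lowest p of the members (−0.34, SE 0.11, edgeR adjusted p = 0.364). For 22 August 10 of 17 sterol enzymes were positive (median 0.077) and 4 of 8 fatty acid enzymes (median 0.048), against 8291 of 16233 tested genes (median 0.005). On 18 September tested genes under 2500 bases had median log2 deviations from their means of 0.061 (mimic) and 0.129 (control). Those over 5000 bases had −0.085 and −0.122. On 5 September the same values were −0.05 and −0.089 for the shorter genes, and 0.104 and 0.12 for the longer. Median lengths were 2352 bases for sterol enzymes and 5217.5 bases for fatty acid enzymes. The part of gene length in these date differences was not tested.

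Fatty acid synthesis draws on acetyl-CoA that ACLY makes from citrate and ACSS2 from acetate. ACLY had the highest level per length of the members, 109 CPM per kilobase, and stood at 523, 434 and 443 CPM under the mimic against 463, 496 and 467 CPM under the control. ACSS2 ran at 12.2 to 15.1 and 14.6 to 16.6 CPM and was below its control on each date (fitted −0.17, SE 0.15). Groups overlapped for both genes.

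FASN (ENSG00000169710, chr17:80036214-80056208), which builds palmitate, stood at 393, 276 and 301 CPM under the mimic against 239, 442 and 317 CPM under the control. Its control libraries of 22 August and 5 September were the lowest and the highest of the 6. The log2 ratio was 0.71 on 22 August, −0.68 on 5 September and −0.07 on 18 September. The fitted change of −0.04 (SE 0.21, 95% CI −0.51 to 0.42) averages opposite ratios: it was −0.397 without both libraries of 22 August and 0.315 without both of 5 September. ACACA, the carboxylase that supplies malonyl-CoA to it, stood at 83.9, 78.4 and 71.7 CPM against 56.7, 85.1 and 67.9 CPM (fitted 0.16, SE 0.16).

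SCD, the desaturase that makes oleate, stood at 205, 182 and 164 CPM under the mimic against 138, 174 and 162 CPM under the control (fitted 0.22, SE 0.15). ELOVL6 (ENSG00000170522, chr4:110967002-111120355), which elongates palmitate, stood at 29.2, 29.6 and 29.9 CPM against 25.6, 24.6 and 28 CPM. All its mimic libraries lay above all its control libraries, which held for 4.22% of tested genes. The fitted change was 0.18 (SE 0.13, edgeR adjusted p = 0.999).

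FADS1, a desaturase of polyunsaturated fatty acids, ran at 68.7 to 89.9 CPM under the mimic and 64.8 to 75.9 CPM under the control and was above its control on each date. FADS2, which acts upstream of it, ran at 52.7 to 79.7 and 60.0 to 71.8 CPM. The gene models overlap on opposite strands over 29692 bases, and the strand setting of the counting is not given in the sources used here, so their reads may not be told apart. FEN1 overlaps FADS2 on the same strand over 4265 bases, with 20520 counts over all libraries against 10313 for FADS2, so the level of FADS2 is uncertain whatever that setting.

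Set against all genes, the members were not called between mimic and control: 0 of 29 by edgeR at an adjusted p under 0.05 against 0% of 16233 genes, and 0 of 29 by DESeq2 against 0.0308%. At an unadjusted p under 0.05 there was 1 of 29 by edgeR (3.01% of genes) and 1 of 29 with the date as a block (5.75%), and 1 of 29 by DESeq2 (2.67%), NSDHL each time. Groups did not overlap for 2 of 29, against 8.06% of genes. The mimic lay on the same side on all 3 dates for 9 of 29 (SCD, ELOVL6 and FADS1 above, and MVD, FDPS, FDFT1, NSDHL, SC5D and ACSS2 below), against 30% of genes (15.6% above and 14.4% below).

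The 95% CI stayed inside a 2-fold change either way for 29 of 29 members, against 84.4% of tested genes, and inside a 1.5-fold change for 26, against 55.6%. The median SE of the members was 0.156 in log2, and that of all tested genes 0.181. Changes smaller than these intervals could not be seen with 3 libraries a group.

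**Figure D3:**
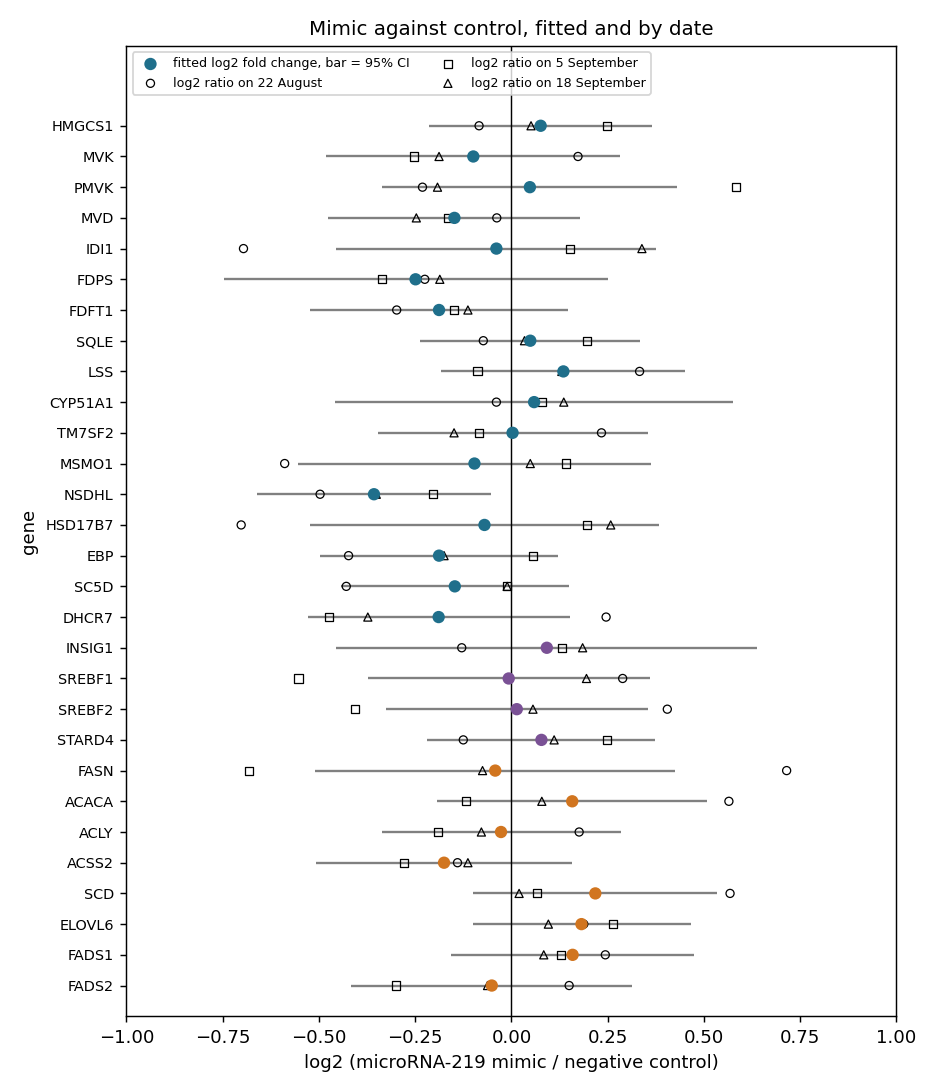
Log2 of mimic over control for each member, as the fitted value with its 95% CI (n = 3 against 3) and as the ratio on each date. All 29 intervals lie inside a 2-fold change, and the ratios by date of FASN, 0.71 and −0.68 at the ends, reach past its interval on both sides.

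Side by side, sterol enzymes had a median log2 change of −0.096 (11 of 17 below 0) and fatty acid enzymes one of 0.066 (4 of 8 below 0), against 0.002 for all tested genes. The sterol minus fatty acid difference of −0.162 varied by date: it was −0.441 on 22 August, 0.143 on 5 September and −0.092 on 18 September (SD 0.294 over dates). On 22 August 13 of 17 sterol enzymes were below their control and 7 of 8 fatty acid enzymes above it, where 52% of all tested genes were above. HSD17B7 (−0.70) and IDI1 (−0.70) had the lowest ratios of that date, and FASN (0.71) and SCD (0.57) the highest. With 1 library left out the difference ran from −0.024 (without the mimic library of 22 August) to −0.292 (without that of 18 September), and was −0.288 without the control library of 5 September. It was 0.071 without both libraries of 22 August and −0.299 without both of 5 September. The mimic library of 22 August had 13.3% of its counts in mitochondrially encoded transcripts, where the other 5 had 5.66 to 8.39%, and the part of that share in the difference was not tested.

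Gene length also differed between the branches. The median gene length was 2352 bases for sterol enzymes and 5217.5 bases for fatty acid enzymes. On 22 August tested genes under 2500 bases had a median log2 ratio of −0.185 and those over 5000 bases one of 0.257. The same medians were 0.036 and −0.009 on 5 September and −0.072 and 0.029 on 18 September. With each library's length trend removed, an alternative added after seeing the data, the sterol minus fatty acid difference was −0.195, 0.141 and −0.03 by date and −0.039 over all. NSDHL had −0.31 there, and FASN had ratios of 0.36 on 22 August and −0.67 on 5 September. The part of gene length in the sterol minus fatty acid difference was not tested.

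**Figure D4:**
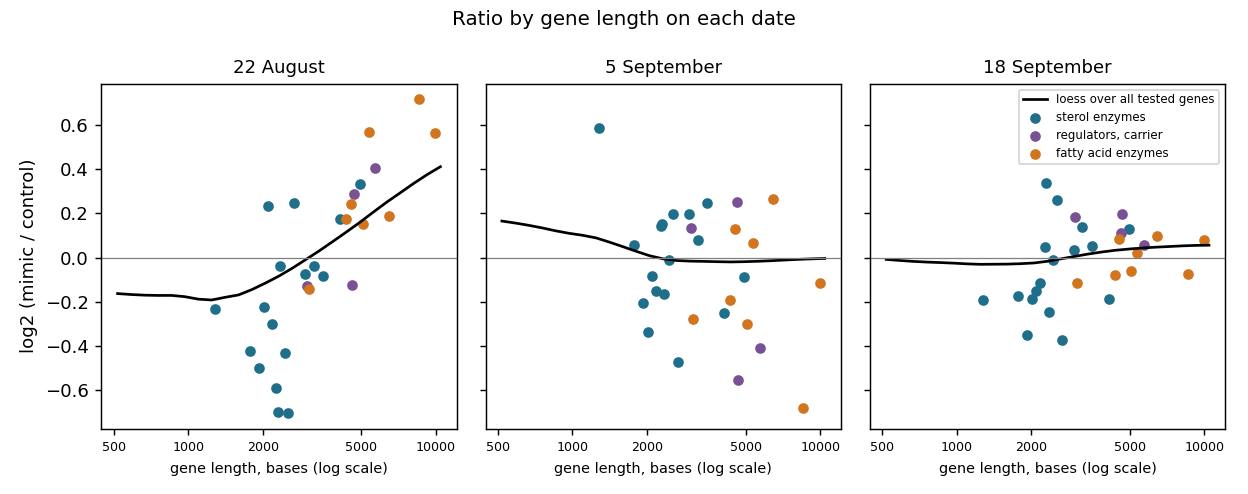
Log2 of mimic over control against gene length (log axis, bases) on each date, with 1 point per member and a loess line over all 16233 tested genes. On 22 August the line climbs with length, from a median of −0.185 under 2500 bases to 0.257 over 5000 bases.

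**Figure D5:**
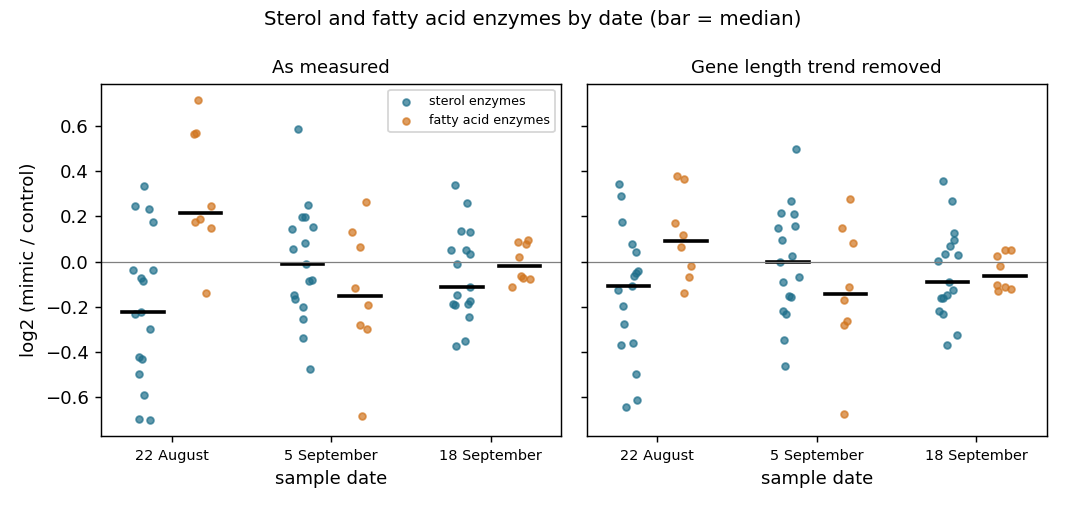
Log2 of mimic over control of the 17 sterol and 8 fatty acid enzymes on each date, as measured and with each library's gene length trend removed. Points are genes and bars are medians, which differ by −0.441 on 22 August as measured and by −0.195 with the trend removed.

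In single libraries, sterol enzymes together made 703, 743 and 811 CPM under the mimic and 820, 718 and 825 CPM under the control. The 3 lowest libraries were the mimic libraries of 22 August and 5 September and the control library of 5 September. They were also lowest in intestinal transcripts, at 0.349, 5.72 and 1.08 CPM, where the others had 13.7, 20.5 and 14.8 CPM. Their genes over 5000 bases had a median log2 deviation of 0.104 to 0.12 from the gene means, against −0.135 to −0.085 in the others. With the length trend removed, the sterol median deviated by −0.054 to −0.025 in the first 3 and by −0.003 to 0.066 in the others. The part of intestinal transcripts in the sterol levels was not tested.

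Fatty acid enzymes together made 1420 CPM in the mimic library of 22 August and 1370 CPM in the control library of 5 September, against 1090 to 1180 CPM in the other 4.

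The lists of further genes of the pathway held 65 names, of which 60 were in the table and 55 were tested. The names not in the table were newer names of genes that were in it under older ones. None passed: 0 of 55 were called by edgeR between mimic and control, where 0% of all tested genes were. Between dates 0 of 55 were called as well, against 0.339%, 0% and 0.0493% of tested genes by date. Of the 55, 15 were above 0 and 40 below, with a median of −0.068. Over all tested genes 49.7% were below 0, with a median of 0.002. Whether these lists moved as sets was not tested. Among 13 further sterol genes 12 were below 0, with the thiolase ACAT1 at −0.26 (SE 0.18) and the cholesterol-binding NPC2 at −0.22 (SE 0.17). Of 7 genes that process or degrade SREBP regulators 7 were below 0, with UBE2G2, a ubiquitin-conjugating enzyme, at −0.13 (SE 0.13).

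ABCG1, a cholesterol exporter and target of the sterol sensor LXR, had the largest value among them. It stood at 2.83, 2.75 and 6.06 CPM under the mimic against 1.39, 1.83 and 2.42 CPM under the control. Every mimic library lay above every control library, which held for 4.22% of tested genes. Other genes of these lists were separated too, among them MLXIPL above, and UBE2G2 and ELOVL7 below. The fitted change of ABCG1 was 1.04 (SE 0.34, edgeR adjusted p = 0.999). It had only 35 to 131 counts per library. NR1H3, which encodes an LXR, had −0.14 (SE 0.17). Of the 5 tested genes on the list of LXR and its targets, ABCG1 among them, 3 were above 0 and 2 below. Their median was 0.022.

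Among 24 further fatty acid genes 9 were above 0 and 15 below. MLXIPL, the carbohydrate-responsive factor of lipogenic genes, stood at 10.5, 6.77 and 7.08 CPM against 5.91, 6.27 and 5.74 CPM (fitted 0.44, SE 0.21). The elongase ELOVL7 had −0.27 (SE 0.13). Of 6 other SREBP-responsive genes 4 were below 0, with PCYT2, of phosphatidylethanolamine synthesis, at −0.20 (SE 0.16) and the retinal reductase RDH11 at −0.11 (SE 0.13).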

How the data were processed

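Counts per gene for 6 HEK293 libraries, with gene lengths in bases, were deposited by the authors as 1 table. The submitters' processing notes name STAR 2.5, HTSeq 0.6.1, DESeq2 and hg19; strand setting and annotation version are not given in the sources used here. Groups and dates come from the labels, and 0 columns of values were left unmapped.

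Main results used edgeR 4.0.16 in R 4.3.3: the quasi-likelihood F test with TMM, filterByExpr (min.count 10, min.total.count 15), no block, and Benjamini-Hochberg adjustment over all tested genes at 0.05. Dates were tested with date and mimic as terms, each date against the mean of the others. Alternatives were limma 3.58.1 (voom), DESeq2 1.42.0, other scaling, no filter, the date as a block and libraries left out. SE is the log2 change divided by the root of F. Ratios by date are differences of log2 CPM with prior count 2. Length trends are loess fits (span 0.5) per library. Figures used matplotlib 3.10.9.

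Libraries are paired by the date in the labels, and deviations within a date correlated at 0.0466, 0.154 and 0.513. Separate cultures are not stated, so p-values measure only the spread among these samples, which may be technical. No libraries of a group were duplicates. Code was tested on simulated data.

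Members and lists were chosen with earlier results of these data known. Named genes were all members and, of the further lists, the 2 with the lowest p each, with AGO2 as the transfected gene. 1 of these is not reported here.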

Additional observations from a re-analysis of the deposited data

How the results depend on the processing

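With 3 libraries a group, changes inside the printed intervals could not be seen. Over 522 member values (29 members, 18 settings each) 473 kept their direction and 49 reversed. None passed (0, smallest adjusted p 0.639), and 12 members never reversed. The cause was not tested for any change that follows. Calls between groups, above and below the control, were 0 and 0, but 6 and 14 without the filter, 2 and 3 by DESeq2, and 4 and 6 by DESeq2 with the date as a block. The replicate block in edgeR left 0 and 0 genes and changed no member's call, with branch medians of −0.09 and 0.069 (difference −0.159).

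Reversed values were 0.013 for SREBF1 (upper-quartile scaling), −0.001 for TM7SF2 (DESeq2 with the block) and −0.059 for SREBF2 (length trend removed). Without both libraries of 22 August IDI1 was 0.254, TM7SF2 −0.117, MSMO1 0.091, HSD17B7 0.234, ACACA −0.027 and SREBF2 −0.177. Without both of 5 September HMGCS1 was −0.015, PMVK −0.214, SQLE −0.024, FASN 0.315, ACLY 0.05, FADS2 0.053, SREBF1 0.24 and STARD4 −0.013. Without both of 18 September SREBF2 was −0.016.

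With 1 library left out, MVK ran from −0.224 to 0.055, PMVK from −0.095 to 0.159, IDI1 from −0.243 to 0.15, SQLE from −0.019 to 0.12, LSS from 0 to 0.212, TM7SF2 from −0.082 to 0.11 and MSMO1 from −0.332 to 0.118. HSD17B7 ran from −0.265 to 0.098, FASN from −0.232 to 0.218, ACLY from −0.115 to 0.022, FADS2 from −0.251 to 0.065, INSIG1 from −0.238 to 0.343, SREBF1 from −0.113 to 0.156 and SREBF2 from −0.089 to 0.141.

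Between dates, genes called for 22 August went from 55 to 240 without the filter and 114 by DESeq2 (1 member each), and from 54 to 1363 with 1 library left out (0 to 5 members). For 5 September they went from 0 to 204 without the filter, 14 with date alone and 62 by DESeq2, and from 9 to 2344 with 1 library left out (0 to 5 members). For 18 September they went from 8 to 494 without the filter, 41 with date alone and 157 by DESeq2 (1 member each), and from 3 to 3748 with 1 library left out (0 to 6 members).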

Other observations

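FDPS and CYP51A1 stood at 1.58 and 0.604 CPM per kilobase, where HMGCS1 had 44.7, FDFT1 40.6, MSMO1 32.1 and EBP 31.4 CPM per kilobase. By level per length they lay at percentiles 28.8 and 15.3 of all tested genes, and the other sterol enzymes lay between 45.1 and 92.9. Of the 29 members 18 overlap another gene model of the table and 4 have a pseudogene row. This pair was chosen after the values were seen.

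ABCG1 had its highest level, 6.06 CPM, in the mimic library of 18 September. Its log2 difference of that date from the others was 0.89 (SE 0.23, edgeR adjusted p = 0.208).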
